A study of Mus musculus with 6 samples.

Results

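The vascular endothelial growth factor (VEGF) family and its receptors were followed across the cell types of the mouse proximal pulmonary artery (PA). The 10 genes were chosen by symbol out of the 53647 genes counted, and all 10 were present: the 5 ligand genes Vegfa, Vegfb, Vegfc, Vegfd and Pgf, the 3 receptor genes Flt1, Kdr and Flt4, and the 2 co-receptor genes Nrp1 and Nrp2. The study compared single cells of young and old PAs from naturally aged C57BL/6J mice, asking how aging changes the cells of the arterial wall. The 2 young libraries came from animals of 3 months, and the 4 old libraries from animals of 20, 24, 28 and 27 months, named here old 1 to old 4. By the study's account the animal of 28 months was female and the other old animals were male. Young animals were of both sexes, the sex behind each young library was not stated, and a further young animal was not analysed here. Each library is taken as 1 animal. Between the ages, p-values measure the spread between these libraries. Cell types are compared within libraries, so there p-values measure how far the difference between types varied from library to library. In both, a gene's variance estimate borrows from all genes tested, and very small p-values from few libraries rest on this. Vessels were taken with the tissue around them, cut up and digested with collagenase and elastase, and no treatment or transgene was involved.

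VEGF ligands are secreted dimers that bind tyrosine kinase receptors on endothelial cells (ECs). VEGF-A binds VEGFR1 (the product of Flt1), which holds the ligand tightly and signals weakly, and VEGFR2 (Kdr), which carries most of the growth and permeability signal in blood vessels. VEGF-B and placental growth factor (Pgf) bind VEGFR1, whereas VEGF-C and VEGF-D bind VEGFR3 (Flt4) and drive the growth of lymphatic vessels. VEGF-C, once cleaved, also binds VEGFR2. Neuropilin 1 and neuropilin 2 (Nrp1, Nrp2) lack kinase activity of their own and present VEGFs to the receptors, and they also bind class 3 semaphorins together with plexins.

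After filtering, 15311 cells remained, of which 1971 were blood ECs, 106 lymphatic ECs, 1778 fibroblasts (FBs), 3540 smooth muscle cells (SMCs) and 942 perivascular macrophages (MΦs). The libraries differed in depth: they held between 6355125 and 50436562 unique molecular identifiers (UMIs, each a counted molecule), and the median cell had 5422 UMIs in old 3 and 8052 in old 4 but between 799 and 2161 in the other libraries. Young 1, young 2 and old 2 shared between 131 and 215 cell barcodes pairwise, against at most 4 for any other pair of libraries. Cells also clustered by library: the cluster that held 524 of 776 blood ECs of old 3 and 136 of 200 of old 4 held 3 cells each of old 1 and old 2 and none of the young libraries. Age, depth and this split of the libraries therefore cannot be told apart in full, so within-set values are given beside the age results. The defining markers were highest in their own type for 10 of 10 FB genes, 8 of 8 SMC genes, 6 of 7 lymphatic EC genes, 7 of 9 perivascular MΦ genes and 4 of 7 blood EC genes; Plvap and Gpihbp1 were higher in lymphatic ECs and Aqp1 in mesothelial cells. None of the 10 genes was used to cluster cells or to name a type. The name perivascular MΦ is less certain in young 1, young 2 and old 2. There 86.5%, 100% and 95.9% of these cells lay in a cluster where a share of 0.44 of the perivascular MΦ markers was raised. Its leading genes included Prg4, Saa3 and Alox15. In the main clusters of old 1, old 3 and old 4 the share was 0.89.

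Levels are given as CPM, the UMIs of a gene for every 1000000 UMIs of that cell type in a library, for libraries with at least 10 cells of the type, and types with at least 3 such libraries were ordered. Counts were made at transcript 3' ends, so levels are compared between cell types for 1 gene and not between genes. RNA free in the suspension gives a floor: in barcodes of 10 to 100 UMIs, which hold no intact cell, the range over libraries was 22 to 182 CPM for Flt1, 6.76 to 21.2 CPM for Kdr, 2.94 to 27.4 CPM for Flt4 and 36.1 to 185 CPM for Nrp1. For the ligands and Nrp2 it was 10.6 to 32.0 CPM for Vegfb, 5.87 to 35.5 CPM for Vegfc, 0 to 5.63 CPM for Pgf and 11.2 to 81.2 CPM for Nrp2. The 10 SMCs of old 2 went against their label: their 8 SMC markers summed to 9102 CPM against 29811 to 53051 CPM in the other libraries, and alveolar epithelial markers to 28483 CPM against at most 19.1 CPM, so SMC results are given with and without that library.

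**Figure D1:**
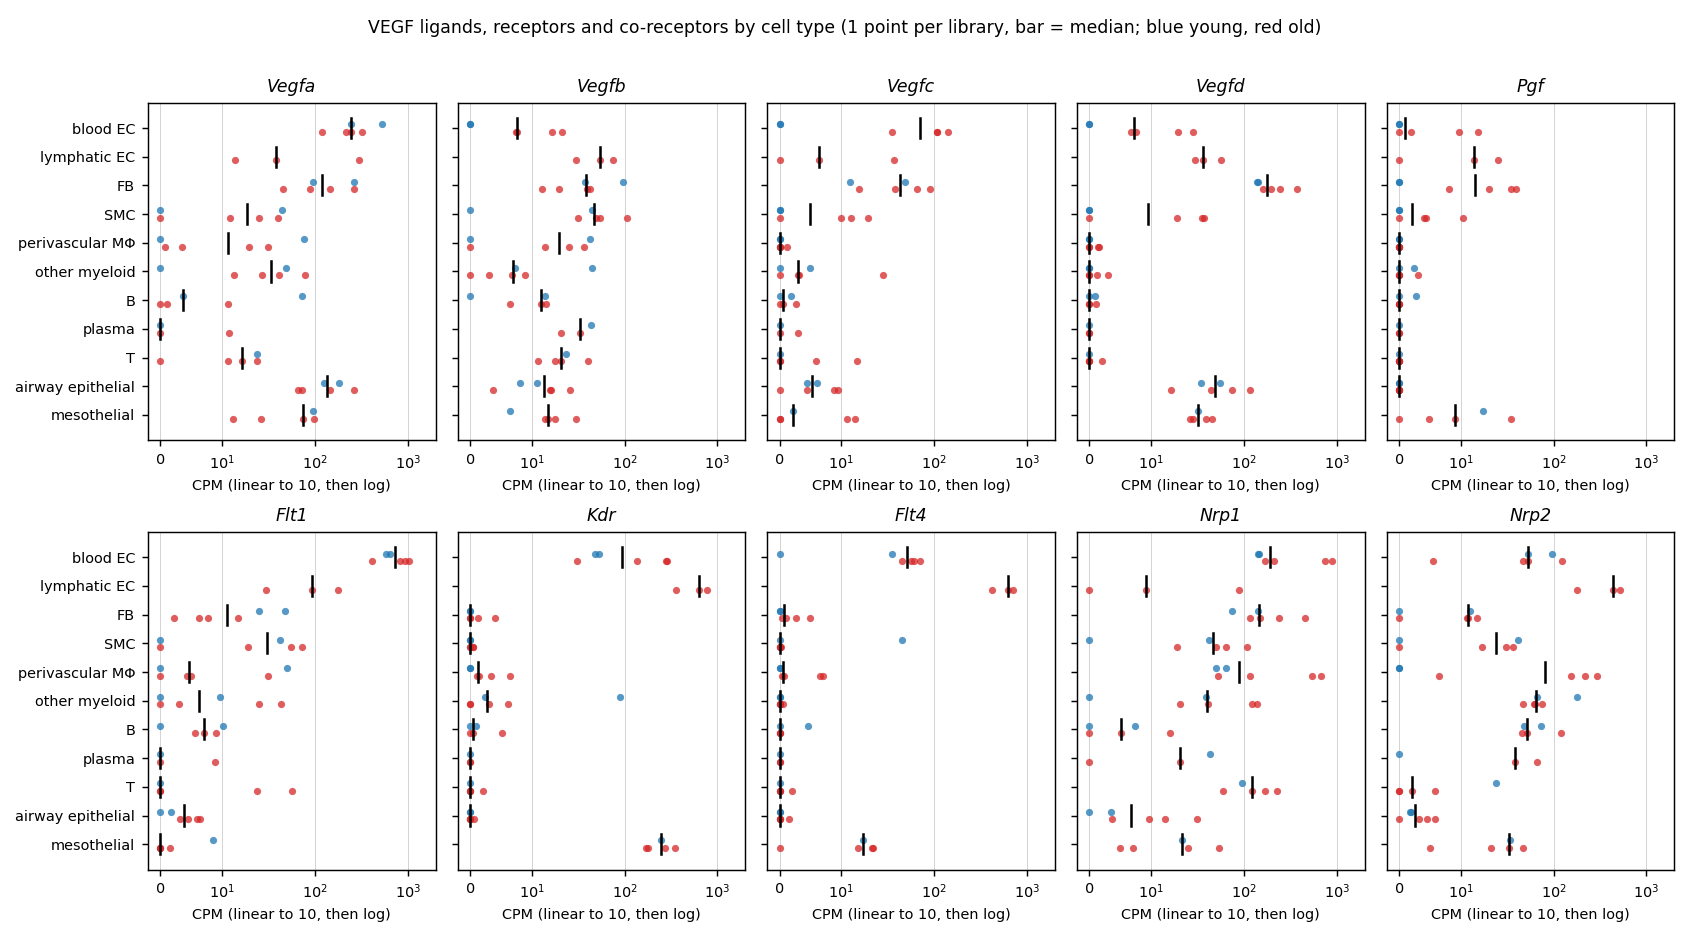
Level of each gene by cell type in CPM, on an axis that is linear to 10 and logarithmic above. Each point is 1 library (blue young, red old) and the black bar is the median. Among these whole types Flt1 stood apart in blood ECs, Flt4 and Kdr were highest in lymphatic ECs with Kdr next in mesothelial cells, and Vegfd was highest in FBs.

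The 3 receptor genes each had their highest level in an endothelial type, and the type was not the same. Flt1 was highest in blood ECs. Its level there was 648 CPM in young 1, 583 in young 2, 412 in old 1, 829 in old 2, 1029 in old 3 and 925 in old 4, a mean of 737 ± 231 CPM (SD, n = 6). No other ordered type overlapped this range: lymphatic ECs, next in the order, had 30.03, 93.6 and 177 CPM in old 1, old 3 and old 4, and SMCs had 0 to 72.2 CPM. A median of 43.0% of blood ECs held a Flt1 UMI and 28.8% did so once each cell was thinned to 500 UMIs, against 2.36% (unthinned) of airway epithelial cells, a type that should lack it.

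Flt4, the receptor of lymphatic endothelium, was highest in lymphatic ECs. It reached 420.4 CPM in old 1, 701 in old 3 and 627 in old 4, above the 0 to 71.0 CPM of blood ECs in every library. Mesothelial cells came next with 0 to 22 CPM, within the range of free RNA, and the median was 17.1 CPM. A median of 76.0% of lymphatic ECs and 7.09% of blood ECs held a Flt4 UMI.

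Among whole types Kdr was also highest in lymphatic ECs, with 360.3 CPM in old 1, 639 in old 3 and 772 in old 4. The second type was not endothelial. Mesothelial cells, the lining of the pleura and the pericardium, had 248 CPM in young 1 and 179, 168, 274 and 350.2 CPM in old 1 to old 4, and 15.3% to 55.0% of them held a Kdr UMI. Blood ECs had 52.5 CPM in young 1, 48.5 in young 2, 31.1 in old 1, 137 in old 2, 288 in old 3 and 277 in old 4, so their range overlapped that of mesothelial cells but not that of lymphatic ECs. Within libraries the mesothelial level lay above that of blood ECs in young 1, old 1, old 2 and old 4 and slightly below it in old 3. A capillary-like part of the blood ECs, described below, had 1562 CPM in old 3 and 1605 CPM in old 4. These values lay above those of lymphatic ECs in the same libraries.

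The mesothelial cells carried few endothelial transcripts of other kinds. Msln, a surface protein of mesothelium, stood at 680.3 to 1597 CPM and Upk3b at 1305 to 2269 CPM. Of the 10 pan-endothelial markers, Cldn5, Egfl7 and Ecscr were at 0 in all 5 libraries, and Cdh5, the adhesion protein of endothelial junctions, reached at most 7.01 CPM. Esam was the exception at 154 to 403 CPM, and Pecam1 ranged from 0 to 98.2 CPM. Flt1 reached at most 8.56 CPM in these cells, so the Kdr level was not accompanied by the other VEGF receptor of blood ECs.

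The 4 genes whose highest cell type stood apart from the next were Flt1, Kdr, Flt4 and Vegfd, and the 250 bases upstream of their transcript starts are shown for that reason, read from RefSeq tables of GRCm38.p6, which is also the build named in the submitters' processing notes. All 10 genes matched an entry. Capitals mark GGAA or its reverse complement TTCC, the core that ETS factors, among them the endothelial factor Erg, bind.
Flt1, chr5:147726012-147726261, minus strand: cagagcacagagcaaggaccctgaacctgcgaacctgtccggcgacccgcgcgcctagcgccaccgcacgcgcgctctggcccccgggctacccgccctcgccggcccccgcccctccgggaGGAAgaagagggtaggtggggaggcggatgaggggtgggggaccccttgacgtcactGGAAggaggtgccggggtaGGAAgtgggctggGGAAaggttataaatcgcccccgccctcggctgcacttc
Kdr, chr5:75978456-75978705, minus strand: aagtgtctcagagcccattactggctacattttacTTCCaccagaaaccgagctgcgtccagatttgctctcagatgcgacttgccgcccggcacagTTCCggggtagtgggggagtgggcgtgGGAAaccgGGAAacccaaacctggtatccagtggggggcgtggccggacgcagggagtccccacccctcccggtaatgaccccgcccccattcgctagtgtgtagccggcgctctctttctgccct
Flt4, chr11:49609429-49609678, plus strand: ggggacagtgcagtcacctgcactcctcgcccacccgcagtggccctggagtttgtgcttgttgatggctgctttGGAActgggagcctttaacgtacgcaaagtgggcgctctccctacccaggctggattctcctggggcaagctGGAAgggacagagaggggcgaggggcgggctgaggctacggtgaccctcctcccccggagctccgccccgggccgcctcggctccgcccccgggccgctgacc
Vegfd, chrX:164373272-164373521, plus strand: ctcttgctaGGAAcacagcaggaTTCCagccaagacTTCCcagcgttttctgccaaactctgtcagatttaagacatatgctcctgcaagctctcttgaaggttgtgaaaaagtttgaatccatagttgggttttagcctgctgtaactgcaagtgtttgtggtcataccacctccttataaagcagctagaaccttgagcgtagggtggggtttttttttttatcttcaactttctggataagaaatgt

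The core occurred 4 times upstream of Flt1, 4 times upstream of Kdr, 2 times upstream of Flt4 and 3 times upstream of Vegfd. Of all 32851 promoters in the table, 93.4% held at least 1 such core in a window of the same length, the median count was 3, and 33.4% held 4 or more. The letters ACGTG on either strand, a form of the core of the hypoxia response element, were found in 16.6% of all promoters. They were in 0 of these 4 windows. Other forms of that core were not searched. Among the 10 genes ACGTG occurred in 1 window, at 1 of 2 starts of Vegfa, and its part in the Vegfa level was not tested. The GC box GGGCGG, on either strand, occurred 3 times upstream of Flt1, 2 times upstream of Kdr, 3 times upstream of Flt4 and 0 times upstream of Vegfd, and 32.7% of all promoters held at least 1.

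The co-receptors divided the cell types in a different way. Nrp1 was led by blood ECs, with 140.0 CPM in young 1, 145.6 in young 2, 169 in old 1, 213 in old 2, 738 in old 3 and 879 in old 4. FBs followed with 75.0 to 451 CPM, T cells with 59.3 to 225 CPM and perivascular MΦs with 50.4 to 680.2 CPM, and each of these ranges overlapped the next. Lymphatic ECs held little Nrp1, at 0, 9.13 and 88.6 CPM. In blood ECs, FBs and perivascular MΦs alike the highest values came from old 3 and old 4, the 2 libraries with the deepest cells, and the part of depth in this was not tested.

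Nrp2, the partner of VEGFR3 in lymphatic vessels, was highest in lymphatic ECs at 180.2, 436 and 513 CPM in old 1, old 3 and old 4. Perivascular MΦs came second with a range that overlapped, and their libraries split. Both young libraries stood at 0 and old 2 at 6.53 CPM, whereas old 1, old 3 and old 4 had 153, 218 and 296 CPM. Other myeloid cells, a mixture of monocytes, dendritic cells and further MΦs, were more even at 47.1 to 177 CPM. Blood ECs ranged from 5.48 to 122 CPM and FBs from 0 to 14.9 CPM, and the FB values and the lower blood EC values lay within or below the range of free RNA.

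Of the ligands, Vegfa was highest in blood ECs by median, the type in which its receptor gene Flt1 was also highest. Its other receptor gene, Kdr, was highest in lymphatic ECs among whole types, and higher still in the capillary-like part of blood ECs. The level was 525 CPM in young 1, 243 in young 2, 323 in old 1, 243 in old 2, 219 in old 3 and 119.6 in old 4. Airway epithelial cells followed at 66.2 to 266 CPM and FBs at 45.5 to 263 CPM, and the ranges of these neighbours overlapped. SMCs had 0 to 44.5 CPM and perivascular MΦs 0 to 75.5 CPM, around the 17.0 to 98.7 CPM of free RNA.

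The lymphatic ligands differed in their highest type, although FBs held both. Vegfc was highest in blood ECs by median, at 0 in both young libraries and at 34.7, 106, 142 and 107 CPM in old 1 to old 4. FBs had 12.5 and 47.8 CPM in the young and 15.6, 64.5, 90.7 and 37.9 CPM in the old libraries, and SMCs 0 to 19.1 CPM. The 34.7 CPM of blood ECs in old 1, the lower FB values and the SMC values lay within or below the range of free RNA. Vegfd was an FB gene: 138 CPM in young 1, 143 in young 2, 161 in old 1, 194 in old 2, 373 in old 3 and 242 in old 4, above every library of every other ordered type. Airway epithelial cells were next with 16.2 to 117 CPM, which overlapped the free RNA range of 7.12 to 98.8 CPM.

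Vegfb and Pgf, the ligands of VEGFR1 alone, were low. Vegfb had a median of 54.8 CPM in lymphatic ECs, 46.8 CPM in SMCs and 38.5 CPM in FBs, and the ranges of these types overlapped. The highest SMC value, 107 CPM in old 2, was 1 UMI, and without that library the SMC median was 44.5 CPM. Pgf reached at most 39.0 CPM in FBs, 34.8 CPM in mesothelial cells and 25.3 CPM in lymphatic ECs. Perivascular MΦs held 0 Pgf UMIs among 4516798 and T and airway epithelial cells none in any library.

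The comparison of blood with lymphatic ECs asks how the receptors are divided between both kinds of endothelium of the PA region. It could be made in old 1, old 3 and old 4, which had 10, 66 and 25 lymphatic ECs. The young libraries had 0 and 1 and old 2 had 4, so age could not be compared in lymphatic ECs. Counts were summed per library and type and compared within libraries by edgeR's quasi-likelihood test with Benjamini-Hochberg adjustment over 9039 genes. By that test 9 of the 10 genes differed, beside 16.9% of all genes tested. Without edgeR's scaling factors (TMM) the median log2 fold change of all genes moved by -0.207, and 45.5% instead of 57.1% of the calls were higher in blood ECs. Cell types were defined by other genes of the same cells, so a difference in genes that travel with those markers is built in.

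Of the genes that differed, 4 were higher in blood ECs, beside 9.67% of all genes in that direction. Nrp1 was higher by 4.77 ± 0.40 on the log2 scale (SE, 3 libraries, adjusted p = 6.5e-30) and rested on 2692 UMIs in blood ECs and 18 in lymphatic ECs. Flt1 was higher by 3.21 ± 0.34 (adjusted p = 8.0e-19), and the 3 blood EC values of 412 to 1029 CPM lay above all 3 lymphatic values. Vegfc was higher by 2.52 ± 0.43 (adjusted p = 1.1e-07) and higher in 3 of 3 libraries. Without old 3 it was higher by 4.27, and without the library block it missed the threshold (adjusted p = 0.089). Vegfa was higher by 2.36 ± 0.36 (adjusted p = 2.4e-09), but old 1 had 323 CPM in blood and 300.3 CPM in lymphatic ECs, and without old 3 the difference was 1.13 with an adjusted p of 0.25.

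The other 5 were higher in lymphatic ECs, beside 7.27% of all genes. Nrp2 differed by -3.20 ± 0.30 (adjusted p = 1.3e-23) and Flt4 by -3.12 ± 0.29 (adjusted p = 2.4e-25), each in 3 of 3 libraries and with no overlap. Kdr differed by -1.46 ± 0.28 (adjusted p = 3.9e-06), and the lowest lymphatic value, 360.3 CPM in old 1, lay above the highest blood value of 288 CPM in old 3. It lost its call with cells thinned to 500 UMIs (-1.30, adjusted p = 0.064) and without the library block (-1.39, adjusted p = 0.40). Vegfb differed by -1.54 ± 0.44 (adjusted p = 0.0038) and was lost without old 4 (adjusted p = 0.20). Pgf, with 21 UMIs in blood and 10 in lymphatic ECs, differed by -2.31 ± 0.80 (adjusted p = 0.026), went the other way in old 1, and could not be tested once old 3 or old 4 was left out. Vegfd missed the threshold at -0.83 ± 0.47 (adjusted p = 0.29), although it was higher in lymphatic ECs in 3 of 3 libraries.

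**Figure D2:**
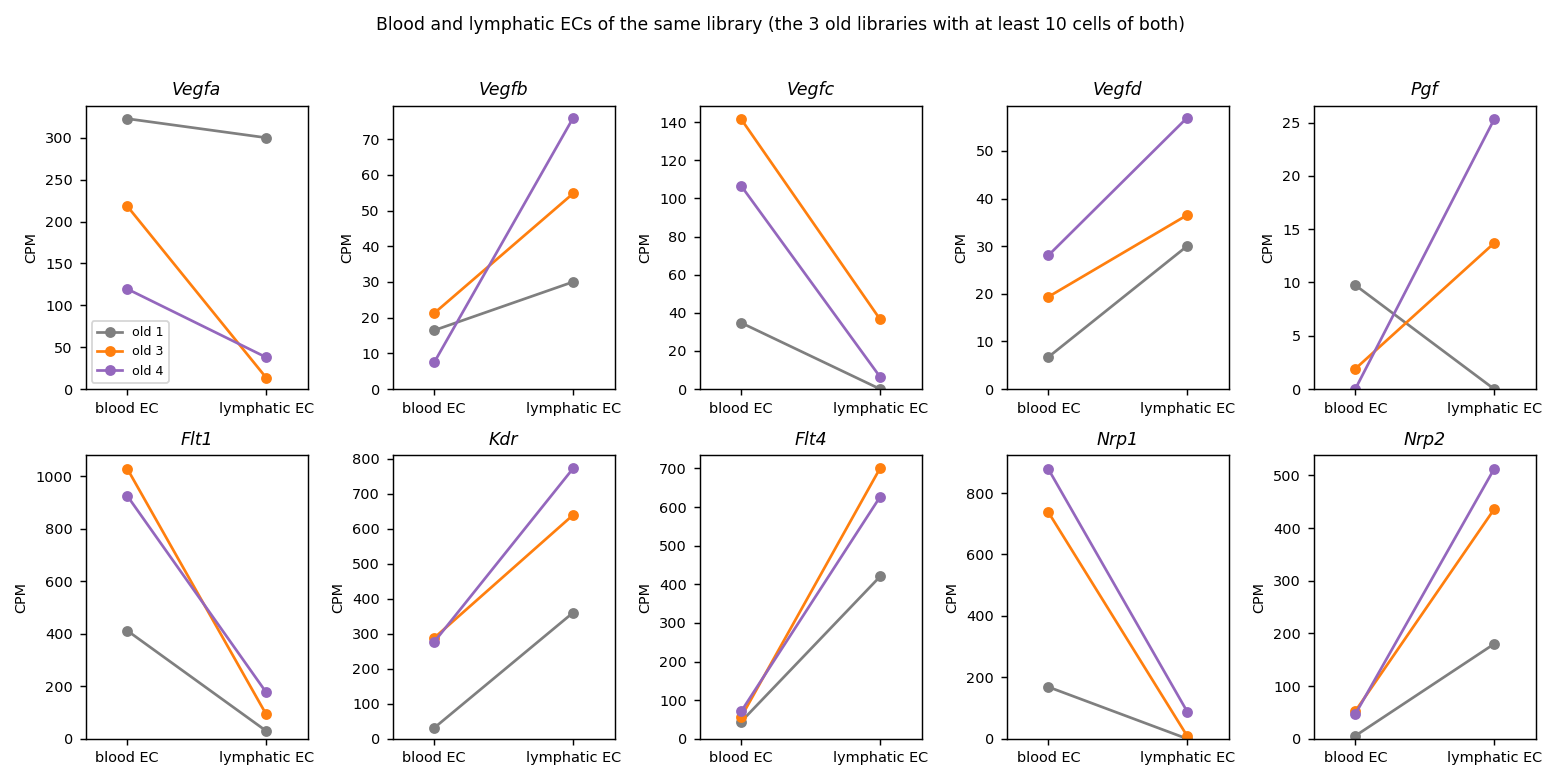
CPM of each gene in blood and lymphatic ECs of the same library, for the 3 old libraries with at least 10 cells of both types; each line joins 1 library and the y axes start at 0. Flt1, Nrp1 and Vegfc fall from blood to lymphatic ECs in all 3, and Kdr, Flt4 and Nrp2 rise in all 3, while Vegfa of old 1 hardly moves.

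Genes that work with these receptors were taken from a list of 73, of which 57 were tested between blood and lymphatic ECs; 11 were higher in blood ECs and 8 in lymphatic ECs, 33.3% beside the 16.9% of all genes. Of the 4 semaphorins tested, which share the neuropilins with VEGF, 1 was higher in blood and 2 in lymphatic ECs: Sema3d (log2 fold change -6.40, adjusted p = 2.5e-71) and Sema3a (-5.07, adjusted p = 1.1e-45). Among plexins Plxnd1, an endothelial semaphorin receptor, was higher in blood ECs by 1.89 (adjusted p = 1.3e-07). Of the 10 receptor partners 2 were higher and 3 lower in blood ECs. Dab2, an endocytic adaptor, differed by -3.17 (adjusted p = 2.8e-25) and Ptprb, the phosphatase that restrains endothelial kinases, by 2.71 (adjusted p = 5.1e-13). Of 7 oxygen-sensing genes tested only Epas1, which encodes HIF-2 alpha, passed, and it was higher in blood ECs by 3.00 (adjusted p = 1.3e-16).

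Of the 22 signal relay genes tested 5 were higher in blood and 2 in lymphatic ECs, with Nfatc1 at -1.50 (adjusted p = 6.5e-07) and the adaptor Nck2 at 1.99 (adjusted p = 7.6e-05). Angpt2, a ligand of the Tie2 receptor, was the 1 endothelial response gene of 8 that passed, at -2.41 (adjusted p = 1.0e-05). Of the 3 processing genes tested, the protease gene Pcsk5 was higher in blood ECs by 1.63 (adjusted p = 8.3e-06).

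Blood ECs were not uniform. A cluster of 206 cells had 6 of 6 capillary markers raised, among them Gpihbp1 and Car4, and is called capillary-like here. It held 174 cells of old 3, 22.4% of its blood ECs, and 25 of old 4, or 12.5%, but 2 cells or fewer in each of the other 4 libraries, where its share was 0.15% to 3.39%. Its values are a description without a test, since the cells were separated by their own expression.

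In capillary-like blood ECs Kdr stood at 1562 CPM in old 3 and 1605 CPM in old 4, and 86.2% and 100% of the cells held a UMI. The other blood ECs had 31.0 CPM in both of these libraries and 30.5 to 123 CPM across all 6. Flt1 was 3044 and 3319 CPM in the capillary-like cells, against 412 to 792 CPM in the others, and Nrp1 was 1209 and 1557 CPM against 125 to 753 CPM. Nrp2 followed the same order at 303 and 252 CPM against 1.82 to 123 CPM. Vegfa and Vegfc ran the other way, while the other ligands rested on at most 4 UMIs in the capillary-like cells of either library. Vegfa was at 6.78 and 11.98 CPM, on 3 and 1 UMIs, in capillary-like cells and at 139.5 to 536 CPM in the other blood ECs, and Vegfc was at 36.2 and 24.0 CPM against 163 and 122 CPM in the same libraries.

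**Figure D3:**
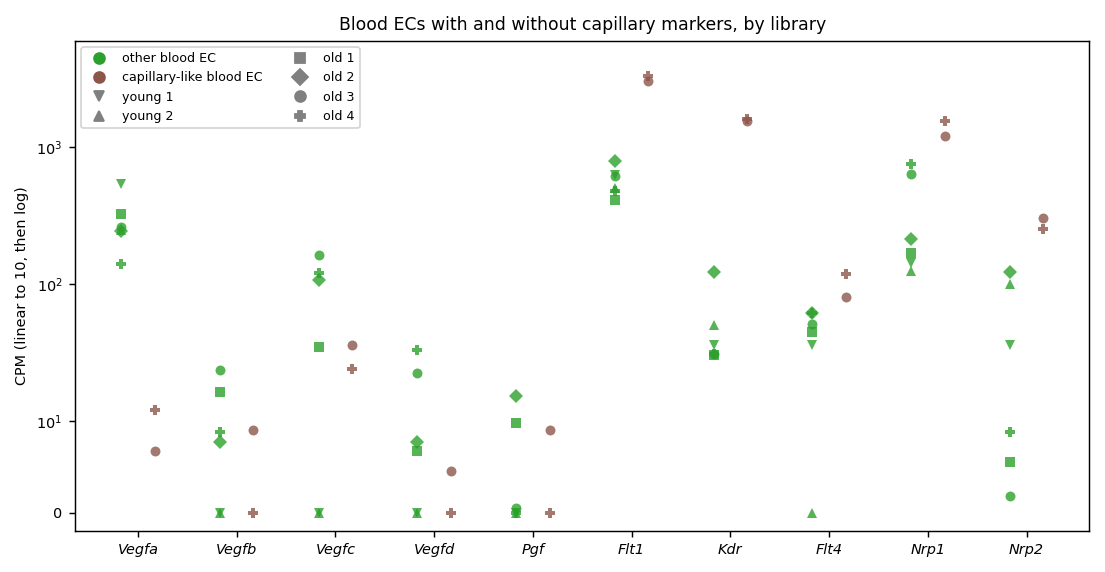
CPM of each gene in capillary-like (brown) and other blood ECs (green), on an axis that is linear to 10 and logarithmic above; each marker shape is 1 library. The 2 libraries with enough capillary-like cells place Flt1, Kdr, Nrp1 and Nrp2 above, and Vegfa and Vegfc below, the other blood ECs.

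With the capillary-like cells left out of the blood ECs, a choice made after the data were seen, the contrast with lymphatic ECs kept its sign for all 10 genes. Kdr then differed by -3.95 and Nrp2 by -6.12, both larger than with these cells included, and Flt1 by 2.50. The cells left out held the highest blood EC levels of these genes, so leaving them out had to lower the blood EC side. The size of these shifts, and of those from the same step below, is a description and not a test.

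Against FBs, the main matrix-producing cells of the adventitia, 10 of 10 genes differed in blood ECs over 6 libraries, beside 34.7% of 9846 genes tested. Of these, 7 were higher in blood ECs, beside 16.1% of all genes, and 3 lower, beside 18.6%. The receptors differed most. Flt1 was higher by 7.22 ± 0.51 on the log2 scale (adjusted p = 2.9e-07), Kdr by 6.81 ± 0.37 (adjusted p = 1.5e-18) and Flt4 by 5.96 ± 0.44 (adjusted p = 1.5e-14), each in 6 of 6 libraries apart from Flt4, which stood at 0 in both types of young 2. Without the capillary-like cells Kdr was higher by 3.96 (adjusted p = 1.5e-10), and leaving out old 3 gave 6.21 for Flt1, 5.99 for Kdr and 5.11 for Flt4. Nrp2 was higher by 2.16 ± 0.30 (adjusted p = 1.4e-07), but without the capillary-like cells the difference was 0.01 (adjusted p = 0.997). The libraries then split. The other blood ECs had 35.7, 100 and 123 CPM in young 1, young 2 and old 2, on 2, 4 and 16 UMIs, above the 0 to 14.9 CPM of FBs. In old 1, old 3 and old 4 they had 5.49, 1.82 and 8.86 CPM. Vegfa (0.93 ± 0.29, adjusted p = 0.018), Vegfc (0.86 ± 0.26, adjusted p = 0.0066) and Nrp1 (0.85 ± 0.22, adjusted p = 0.0022) were higher by less.

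Vegfd, Pgf and Vegfb were higher in FBs. Vegfd differed by -4.14 ± 0.28 (adjusted p = 7.1e-16), Pgf by -2.25 ± 0.46 (adjusted p = 1.1e-04) and Vegfb by -1.18 ± 0.33 (adjusted p = 0.0049). Leaving out old 4 took the calls of Vegfb (adjusted p = 0.095), Vegfc (0.20) and Nrp1 (0.13), and leaving out young 1, young 2 or old 3 took that of Vegfa (0.057 to 0.076). Of the 5 genes tested that process VEGF-C and VEGF-D, Ccbe1, the cofactor of that cleavage, was higher in FBs by 6.28 on the log2 scale (log2 fold change -6.28, adjusted p = 4.7e-14), as was the protease gene Adamts3 (-2.96, adjusted p = 6.8e-08).

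Of the 61 pathway genes tested against FBs 27 were higher and 12 lower in blood ECs, 63.9% beside the 34.7% of all genes. Cdh5 is also among the markers that named ECs, and Sema3c among those of an FB subset, so their differences are in part built in. Sema3c was far lower (-7.66, adjusted p = 9.7e-22) and Sema3g higher (8.0, adjusted p = 4.4e-18). Cdh5 (8.98, adjusted p = 3.8e-22), Efnb2 (4.77, adjusted p = 1.0e-16), Plxnd1 (4.82, adjusted p = 7.7e-17), Plxna4 (4.54, adjusted p = 8.2e-17), Epas1 (4.29, adjusted p = 1.7e-18), the Notch ligand gene Dll4 (7.41, adjusted p = 4.3e-17) and Nos3, the endothelial nitric oxide synthase (8.51, adjusted p = 4.0e-21), were higher.

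Against SMCs, 8 of the 9 genes tested differed, beside 36% of 10239 genes, with 6 higher (19.4% of all genes) and 2 lower (16.6%). Kdr was higher in blood ECs by 8.91 ± 0.57 (adjusted p = 4.3e-52), Flt4 by 7.75 ± 0.51 (adjusted p = 4.1e-49) and Flt1 by 4.24 ± 0.45 (adjusted p = 4.3e-20). Without the capillary-like cells Kdr was higher by 5.81 (adjusted p = 4.1e-27). Nrp1 (3.50 ± 0.45, adjusted p = 1.8e-13), Vegfa (3.25 ± 0.39, adjusted p = 5.7e-16) and Vegfc (2.87 ± 0.33, adjusted p = 7.1e-17) were higher as well. Vegfb was higher in SMCs (-1.62 ± 0.33, adjusted p = 7.9e-06). Vegfd was too (-0.88 ± 0.36, adjusted p = 0.038), but lost its call under 7 of 19 alternatives, among them leaving out old 3 (adjusted p = 0.24) or old 4 (0.12). Nrp2 did not pass (0.45 ± 0.30, adjusted p = 0.26) and turned to -1.66 (adjusted p = 4.4e-04) without the capillary-like cells, while leaving out old 1 gave 0.66 (adjusted p = 0.038). Pgf was below the filter. Without old 2, whose SMCs carried alveolar markers, 8 of 9 genes were again called, beside 3842 of 10139 genes tested, with Kdr at 8.93, Flt4 at 7.78, Flt1 at 3.99, Nrp1 at 3.55, Vegfa at 3.09, Vegfc at 2.85, Vegfb at -1.64, Vegfd at -0.93 and Nrp2, which did not pass, at 0.31. Of 62 pathway genes tested 27 were higher and 9 lower in blood ECs, 58.1% beside the 36% of all genes, led by Sema3g (8.27, adjusted p = 1.8e-58) and Dll4 (8.42, adjusted p = 6.1e-60).

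Perivascular MΦs were set against FBs because the paper places FBs and MΦs mostly in the adventitia, the outer wall. The place of the cells was not tested here. In the libraries that share cell barcodes, most of these MΦs lay in the cluster where fewer perivascular MΦ markers were raised. Their name is less certain there. The results hold for the type as named, and the part of this difference in them was not tested. Of the 8 genes tested 5 differed, beside 39.3% of 10549 genes, with 1 higher (18.5% of all genes) and 4 lower (20.9%). Nrp2 was higher in MΦs by 4.2 ± 0.76 (adjusted p = 0.0015), and DESeq2 gave an adjusted p of 0.10. It was higher in MΦs only in old 1, old 3 and old 4. Both young libraries held no MΦ Nrp2 UMI, against 1 in their FBs. Old 2 ran the other way, with 1 UMI of 153123 in MΦs against 3 of 201444 in FBs. The ligands were lower in MΦs. Vegfa differed by -3.66 ± 0.55 (adjusted p = 6.3e-05) and Vegfd by -7.74 ± 0.52 (adjusted p = 1.7e-11). Vegfc was called (adjusted p = 1.3e-09) on 3 UMIs in MΦs against 609 in FBs, a ratio of 103 with a counting interval of 35.2 to 503. Pgf in FBs was 20.9 times a floor of 3 UMIs over all MΦs. Nrp1 (0.14 ± 0.37, adjusted p = 0.80), Flt1 (0.42 ± 0.53, adjusted p = 0.59) and Vegfb (-0.52 ± 0.38, adjusted p = 0.31) did not pass. Of 59 pathway genes tested 14 were higher and 18 lower in MΦs, 54.2% beside the 39.3% of all genes, and all 4 semaphorins tested were lower, Sema3c by 7.41 on the log2 scale (log2 fold change -7.41, adjusted p = 2.3e-11).

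**Figure D4:**
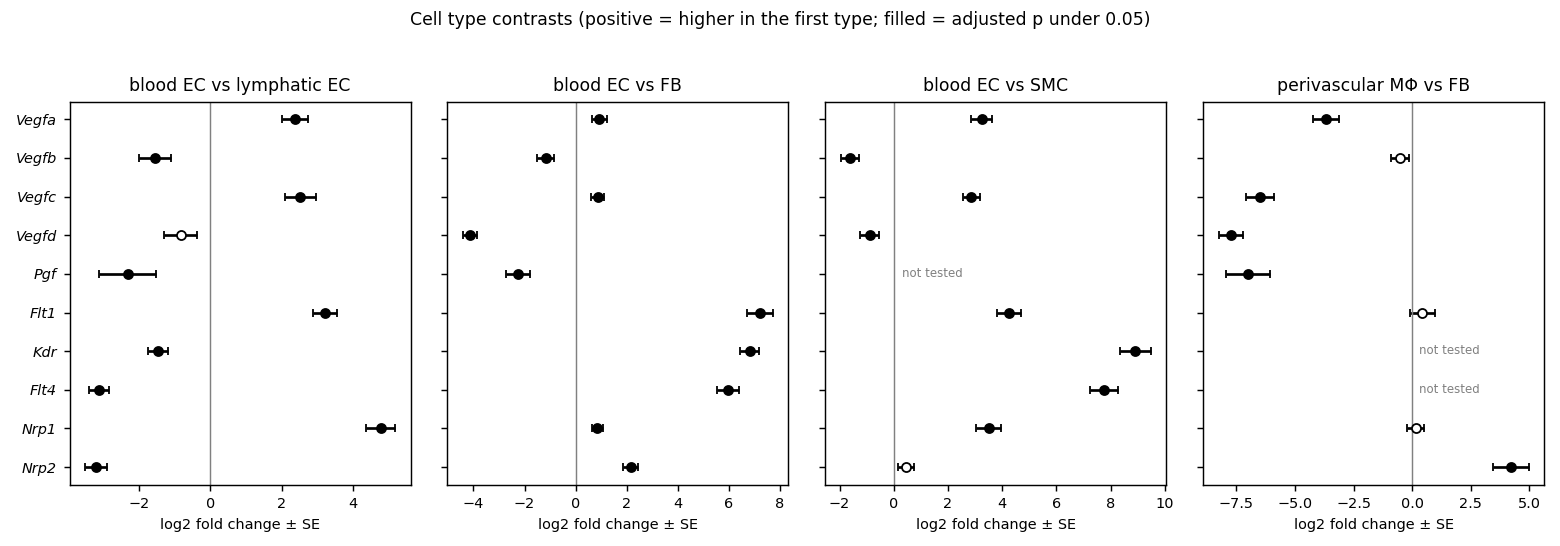
Log2 fold change ± SE of each gene in the 4 comparisons of cell types; positive values are higher in the type named first and filled points have an adjusted p under 0.05. The 3 receptor genes lie far to the right against FBs and SMCs, and Kdr and Flt4 lie left of 0 against lymphatic ECs.

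The age comparison asks whether these genes changed in the wall of the older PA. Each type was fitted on its own, with 4 old and 2 young libraries (3 old for B cells), and the members that passed the filter on low values numbered 5 in FBs, 6 in SMCs, 7 in blood ECs, 2 in perivascular MΦs, 3 in other myeloid cells, 4 in airway epithelial cells and 0 in B cells. By edgeR's quasi-likelihood test 0 members were called in any of these types. The background was as low: 0.0442% of genes were called in FBs, 0.125% in SMCs and 0% in the other types. Without old 2 the SMC fit called 0 of its 6 members and 0 of 6754 genes, with 0 of these members and 565 genes at an unadjusted p under 0.05. DESeq2 also called 0 members in each type. At an unadjusted p under 0.05 there were 2 of 7 members in blood ECs (Vegfc and Nrp1), beside 5.84% of all genes. There were 2 of 2 in perivascular MΦs (Nrp1 and Nrp2), beside 8.26%, and 1 of 4 in airway epithelial cells (Nrp1), beside 6.1%. There were 0 in FBs (6.25% of all genes), SMCs (5.93%) and other myeloid cells (5.09%). With 2 young libraries, a gene could pass the filter through old libraries alone but not through young ones alone. Vegfc in blood ECs and Nrp2 in perivascular MΦs, without a young UMI, passed in that way. Others with few young UMIs did so too. Among them were Kdr and Flt4 in blood ECs (5 and 2 young UMIs) and Nrp1 in airway epithelial cells (4). Vegfc in FBs (2) and the 6 members tested in SMCs (at most 1 each) were as well. Their p-values are therefore not support for a change. Of 4-fold changes simulated in these designs, 0% were recovered in perivascular MΦs, 1% in SMCs, 4.5% in FBs, 6% in blood ECs, 16.5% in other myeloid cells, 21.5% in B cells and 54% in airway epithelial cells. Of the pathway genes, 21 to 48 were tested in each type and 0 were called.

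In blood ECs the young libraries held 98329 UMIs together, which sets what could be seen. Vegfb and Vegfd had 0 young UMIs and 88 and 78 old UMIs, only 0.58 and 0.52 times a floor of 3 UMIs over the young group, so a difference was not detectable at this depth. FB markers differed between these libraries as well: the 10 genes summed to 315 and 1019.5 CPM in the young blood ECs and to 1452, 707, 1736 and 1686 CPM in old 1 to old 4, with 5 and 7 of them detected in the young and 7 to 10 in the old. Their part in the blood EC results was not tested. Vegfc had 0 UMIs in the young and 501 in the old blood ECs, 3.32 times that floor of 3 UMIs. The unadjusted p was 0.0031 and the adjusted p 0.83. Old 1 lay below the 52.5 and 72.8 CPM that 3 UMIs give in young 1 and young 2. Without a gene filter the adjusted p was 0.037. In that fit 78.8% of 23733 genes had a positive fold change, with a median of 1.34 on the log2 scale. With 0 young UMIs, this p-value is not support for a change either. The young preparations did hold Vegfc RNA: free RNA had 35.5 and 14.0 CPM in young 1 and young 2. It had 24.4, 10.3, 21.2 and 5.87 CPM in old 1 to old 4. Within the libraries that share barcodes old 2 had 14 Vegfc UMIs of 131559 against 0, or 3.49 times the floor. That value rests on 1 old library, leaves out the counting error of its 14 UMIs, and is not a test. FBs, next in the order for Vegfc, overlapped between the ages (log2 fold change 1.34 ± 1.10, adjusted p = 0.88).

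Nrp1 in blood ECs was 143 ± 3.98 CPM in young (SD, n = 2) and 500 ± 362 CPM in old libraries (n = 4), a log2 fold change of 1.73 ± 0.72 (unadjusted p = 0.032, adjusted p = 0.83). Old 1 and old 2, at 169 and 213 CPM, lay nearer to the young libraries than to old 3 and old 4. The ratio of old 2 to the young libraries was 1.49, with a counting interval of 0.76 to 3.07. Perivascular MΦs had 63.5 and 50.4 CPM in the young, 115 in old 1, 52.2 in old 2, 680.2 in old 3 and 543 in old 4, a log2 fold change of 2.65 ± 1.12 (unadjusted p = 0.040, adjusted p = 0.59). Old 2 lay between the young libraries there, with a ratio to them of 0.91 (0.26 to 3.53), and with barcode sharing as a covariate the log2 fold change was 0.16 (adjusted p = 1.00). FBs had 75.0 and 143 CPM in the young and 117, 149, 451 and 238 CPM in the old libraries (1.32 ± 0.65, adjusted p = 0.80), and the ratio of old 2 to the young was 1.67 (0.77 to 4.0).

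Kdr in blood ECs was 50.5 ± 2.80 CPM in young and 183 ± 123 CPM in old libraries (log2 fold change 1.77 ± 0.92, adjusted p = 0.88), and old 1 lay below both young libraries. The ratio of old 2 to the young was 2.69 (0.96 to 9.27). Without the capillary-like cells, which came almost wholly from old 3 and old 4, the difference was 0.12. These cells held the highest Kdr levels, so leaving them out had to lower the values of old 3 and old 4. Their part in the difference between the ages was not tested. Flt4 was at 35.0 and 0 CPM in the young and 44.5 to 71.0 CPM in the old libraries on 2 young UMIs (1.48 ± 0.89, adjusted p = 0.91). Kdr and Flt4 passed the filter on low values here through old libraries alone. Flt1 (0.34 ± 0.51, adjusted p = 0.97), Vegfa (-0.76 ± 0.55, adjusted p = 0.91) and Nrp2 (-0.67 ± 1.23, adjusted p = 0.97) overlapped between the ages.

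In FBs Vegfd was 140.4 ± 4.12 CPM in young and 242 ± 93.0 CPM in old libraries, but the log2 fold change of 0.82 ± 0.54 did not pass (adjusted p = 0.82). Of all genes tested in FBs, 60.1% had a positive fold change. The ratio of old 2 to the young libraries was 1.396 with a counting interval of 0.74 to 2.78. FBs also clustered by library. A cluster with 91.3% of the FBs of old 3 and 93.9% of those of old 4 held few FBs of the other libraries. Vegfd was highest in old 3 and old 4, and the part of this split was not tested. Pgf had 0 young UMIs and 123 old UMIs, only 0.47 times the floor over the young group, so a difference was not detectable. Flt1 stood at 2.28 to 14.9 CPM in the old and at 25.0 and 47.8 CPM in the young libraries, but the young values rested on 3 UMIs and lay within the range of free RNA. Vegfa (-0.57 ± 0.82, adjusted p = 0.96) and Vegfb (-0.73 ± 0.76, adjusted p = 0.96) overlapped.

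In perivascular MΦs Nrp2 had 0 UMIs among 86983 in the young and 1024 in the old libraries. The old level was 6.70 times a floor of 3 UMIs over the young group. The unadjusted p was 0.021 and the adjusted p 0.59. Without a gene filter the adjusted p was 0.0040. In that fit 79.6% of 21979 genes had a positive fold change, with a median of 1.56 on the log2 scale. With 0 young UMIs, neither p-value is support for a change. Old 2, the old library that shares barcodes with the young, held 1 Nrp2 UMI of 153123, so the difference was not seen within that set. The absence of young UMIs also held only for this clustering. At Leiden resolution 2.0 the type took in 244 instead of 52 cells of young 1, which held 14 Nrp2 UMIs (59.1 CPM, above the 28.9 CPM of old 2), young 2 held 1, and the log2 fold change was 1.84 (adjusted p = 0.75). With barcode sharing as a covariate it was 5.59 (adjusted p = 1.00). The MΦs of old 3 and old 4 fell in 1 cluster and those of old 1 mostly in another. Those of old 2 and the young libraries fell mostly in one more, where fewer perivascular MΦ markers were raised. For Nrp2, old 2 lay with the young libraries, on 1 UMI. Age, depth, barcode sharing and cluster cannot be told apart here. The ages were compared on MΦs that differed in their markers, and the part of this in Nrp1 and Nrp2 was not tested.

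**Figure D5:**
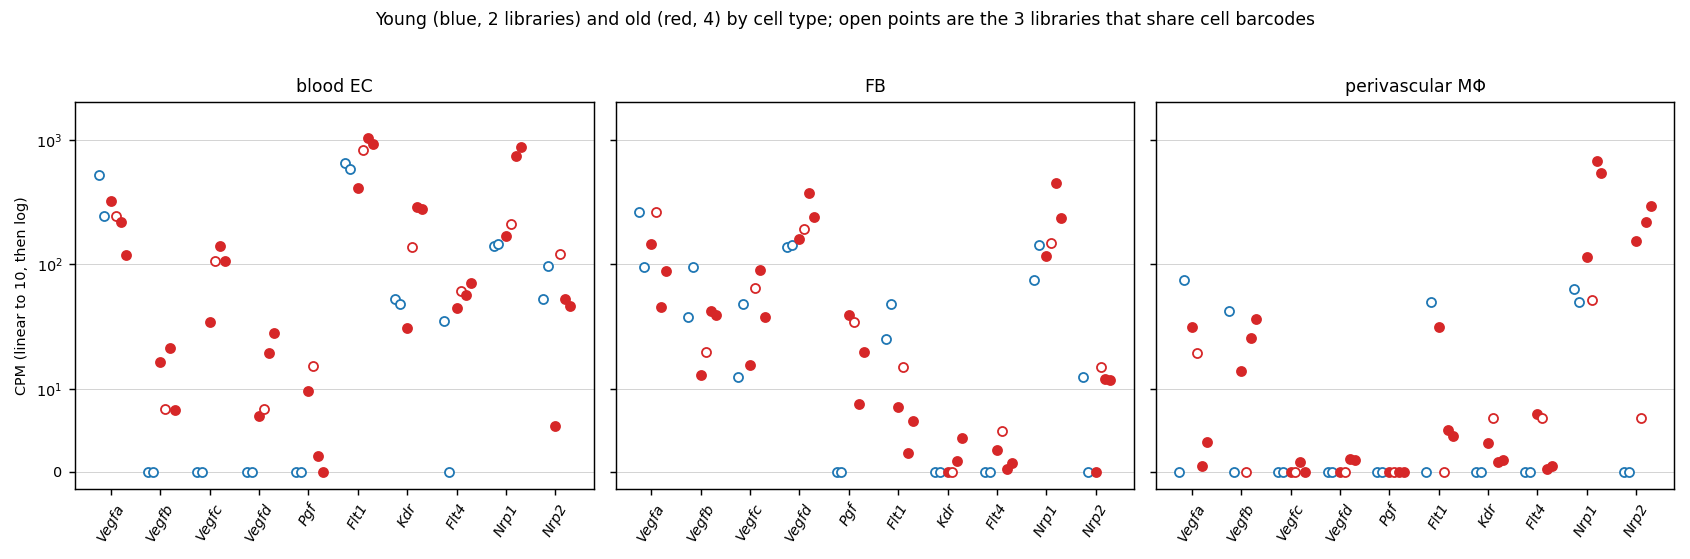
CPM of each gene in blood ECs, FBs and perivascular MΦs by library (blue young, red old), on an axis that is linear to 10 and logarithmic above; open points are the 3 libraries that share cell barcodes. Vegfc in blood ECs is at 0 in both young libraries and above 30 CPM in all 4 old ones, and Nrp1 is highest in old 3 and old 4 in all 3 types.

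The genes whose levels over 13 cell types were most like those of a member were found among 13746 genes with at least 200 UMIs, as Pearson correlations of mean log2(CPM + 1). These are descriptions across types that share libraries and depth. Flt1 was nearest to Gja4 (r = 0.95), an arterial gap junction gene, and Erg (0.94). Kdr was nearest to Podxl (0.89), which mesothelial and endothelial cells both make, and Hmcn1 (0.88). Erg and Podxl are also among the markers of ECs or blood ECs, so these likenesses are in part built in. Vegfd was nearest to Adamts5 (0.94) and Serping1 (0.92), Pgf to Mfap2 (0.97) and Fam171a2 (0.96), and Vegfc to Dipk1b (0.91) and Apcdd1 (0.90). Nrp1 had the weakest likenesses, to Cmklr1 (0.84) and Jam2 (0.83), followed by Nrp2 with Snx9 (0.87) and Myo7a (0.86). Vegfa was nearest to Plagl1 (0.94) and Stk36 (0.91), and Vegfb to Yars (0.93) and Thumpd1 (0.93).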

How the data were processed

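Single cells of the proximal PA were profiled by 10x 3' sequencing in 2 young and 4 old libraries. Per the labels, the authors used cutadapt, STAR and STARsolo with GRCm38.p6 (versions not given in the sources used here) and deposited UMI counts per gene and barcode. Kept barcodes had a minimum of 500 UMIs and 300 genes and no more than 20% mitochondrial UMIs. Doublets were removed by Scrublet's own threshold in 2 libraries, and by its highest scores in the 4 where that threshold marked almost none. Cells were clustered in scanpy 1.11.5 (Leiden, resolution 1.0) with the 10 genes left out, and named from marker lists. Summed counts per library and type (at least 10 cells) were tested by edgeR 4.0.16 (TMM, quasi-likelihood, Benjamini-Hochberg over all genes tested, threshold 0.05), with library as a block between types. A gene was tested where more than 5% of cells held a UMI of it in 3 or more libraries, or, between types, in 2 or more libraries of either type. DESeq2 1.42.0 was an alternative. The genes, marker lists and pathway list were chosen with earlier results of these data known. Named genes were the 10 members, at most 2 pathway genes a group (smallest adjusted p) and the 2 genes most like each member (for Flt4, not reported here). Intervals (95%, exact) and floors of 3 UMIs cover counting error only. The test was tried on simulated counts.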

Additional observations from a re-analysis of the deposited data

Results flagged for a closer look

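In 50 groups of libraries checked, 2 held a library far from the rest of its group, and chance alone gives about 1 in 20. Vegfc in other myeloid cells stood at 28.16 CPM in old 3, while the other 3 old libraries had at most 3.118 CPM. Flt1 in perivascular MΦs stood at 31.32 CPM in old 1, while the next old library had 5.021 CPM. Neither gene passed the filter on low values in these cells, so neither was tested between the ages, and the cause was not tested.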

How the results depend on the processing

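The number of the 10 genes called between cell types depended on depth and on the block. With cells thinned to 500 UMIs, 5 of 6 genes tested were called between blood and lymphatic ECs, beside 307 of 2463 among all genes. Between blood ECs and FBs it was 5 of 5, beside 1503 of 3213. Between blood ECs and SMCs it was 4 of 4, beside 1516 of 3472. Between perivascular MΦs and FBs it was 3 of 4, where 39.3% of all genes were called in the main setting. Without the library block 4 genes were called between blood and lymphatic ECs, beside 592 of 9039 among all genes. Between blood ECs and FBs 6 were called, beside 2052 of 9846. DESeq2 called 3 between perivascular MΦs and FBs, where edgeR called 39.3% of all genes in the main setting. Leaving out 1 library gave 7 to 9, 6 to 10, 7 to 9 and 4 to 5 calls in these 4 comparisons, and 0 between the ages in each type. For blood against lymphatic ECs, 581 of 6912 to 1739 of 8507 among all genes were called in these fits. For blood ECs against FBs it was 2314 of 7656 to 3492 of 9661. With no gene filter 1 member was called between the ages in blood ECs (Vegfc), beside 10 of 23733 genes. In perivascular MΦs 1 was called (Nrp2), beside 69 of 21979. With doublets kept, 6 of the 10 genes kept their highest type, since old 1 then had too few lymphatic ECs for that type to be ordered.

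Among the fold changes between types and those between the ages in FBs, blood ECs and perivascular MΦs, signs turned in 8 cases. Between the ages these were Vegfa in FBs, at 0.78 without young 1 and 0.55 with barcode sharing as a covariate, and Nrp2 in blood ECs, at 0.85 with that covariate. Nrp2 between blood ECs and SMCs was -1.66 without capillary-like cells. Between perivascular MΦs and FBs, Flt1 was -0.12 without old 3, and Nrp1 was -0.065 with doublets kept, -0.17 without old 3 and -0.35 without old 4. Leaving out 1 library gave ranges of -1.14 to 0.78 for that Vegfa value, -0.12 to 0.72 for Flt1 and -0.35 to 0.56 for Nrp1. The cause was not tested. Of 671 values of the genes' fold changes between types under alternatives, 632 kept sign and side of the threshold, as did 222 of 227 between the ages in those 3 types. In SMCs, airway epithelial and other myeloid cells, whose age fold changes are not given, signs turned as well, Vegfa among them, and no value passed the threshold. No paired analysis was possible because the groups share no replicate number that ties animals together. The young libraries' few cells limit what could be seen between the ages.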
